A study of Mus musculus with 15 samples.

Results

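The 8 genes described here encode molecules by which leukocytes hold on to and cross the vessel wall: the immunoglobulin-type adhesion molecules Vcam1, Icam1 and Icam2, the vascular selectins Sele and Selp, the selectin ligand Selplg and the junctional adhesion molecules Jam2 and Jam3. They were chosen by gene symbol, and all 8 were among the 24982 gene symbols counted in the aorta. Each was measured in 15 RNA-Seq libraries of aorta from male wild-type C57BL/6 mice aged 10 months, with 5 libraries in each of 3 groups. All mice received aldosterone at 200 µg/kg per day by minipump and drinking water with 0.9% NaCl and 0.2% KCl (Aldo-salt) for 7 days. The control mice had a sham operation, the orchiectomized mice lost their testes before Aldo-salt, and the DHT-treated mice were orchiectomized and carried a pellet of dihydrotestosterone (DHT), an androgen that cannot be converted to estrogen. No library came from mice without Aldo-salt, so every value below is a level under aldosterone and salt. The study asked which genes of the aorta respond to loss of testicular androgen and to its replacement.

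Leukocytes leave the blood in steps. P-selectin and E-selectin (Selp, Sele) on endothelium catch sugars carried by PSGL-1 (Selplg) on leukocytes, so that the cells roll. Leukocyte integrins then bind VCAM-1 and ICAM-1 and the cells stop, and molecules of the endothelial junctions, including JAM-B and JAM-C (Jam2, Jam3), take part as they cross. Sele, Vcam1 and Icam1 are textbook targets of NF-kB in endothelium exposed to cytokines, ICAM-2 is present on resting endothelium, and P-selectin is stored in endothelial and platelet granules.

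On GRCm38 with the GENCODE vM21 annotation, Sele was at chr1:164048234-164057677 and Selp at chr1:164115264-164150026, both on the plus strand. Vcam1 was at chr3:116109949-116129688 on the minus strand, Icam1 at chr9:21015985-21028817 on the plus strand, Icam2 at chr11:106377656-106388075 on the minus strand and Selplg at chr5:113818536-113832644 on the minus strand. Jam2 was at chr16:84774123-84825928 on the plus strand and Jam3 at chr9:27097384-27155421 on the minus strand. Vcam1, Icam1, Selp and Jam3 each overlap at least 1 annotated noncoding gene on the opposite strand, and because the strand setting of the counting was not given in the sources used here, reads of such a pair cannot be told apart.

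RefSeq promoter sequence (GRCm38.p6) was at hand for 3 of the 8 members, Icam1, Sele and Selp, shown because Sele and Icam1 were called lower with DHT and Selp was not. The 250 bases before each RefSeq start are shown on the gene's strand. Capitals mark matches, on either strand, to AP-1 (TGANTCA), to the TATA box (TATAAA) and to a short form of the NF-kB motif (GGNNNTTCC). The short form was added after the longer 10-letter NF-kB motif had matched in none of the 3 windows.
Sele, chr1:164047984-164048233: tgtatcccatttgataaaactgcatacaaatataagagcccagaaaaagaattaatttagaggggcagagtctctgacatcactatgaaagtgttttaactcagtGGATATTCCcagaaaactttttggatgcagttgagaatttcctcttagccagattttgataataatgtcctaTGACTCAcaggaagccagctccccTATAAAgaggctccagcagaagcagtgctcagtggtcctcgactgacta
Selp, chr1:164115014-164115263: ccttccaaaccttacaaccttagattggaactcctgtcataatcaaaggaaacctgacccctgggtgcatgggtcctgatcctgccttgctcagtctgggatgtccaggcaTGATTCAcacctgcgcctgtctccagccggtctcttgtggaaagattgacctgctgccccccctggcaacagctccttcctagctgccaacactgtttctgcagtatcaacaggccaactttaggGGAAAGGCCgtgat
Icam1, chr9:21015690-21015939: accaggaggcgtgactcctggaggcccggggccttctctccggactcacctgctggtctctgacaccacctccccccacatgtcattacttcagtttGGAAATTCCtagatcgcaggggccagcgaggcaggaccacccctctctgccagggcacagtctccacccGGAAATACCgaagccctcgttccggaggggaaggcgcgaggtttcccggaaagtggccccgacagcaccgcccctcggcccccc

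Counted from the start site, Sele held the short NF-kB form at -145 to -137, AP-1 at -73 to -67 and a TATA box at -49 to -44. Selp held AP-1 at -139 to -133 and the short NF-kB form, on the minus strand, at -14 to -6, and no TATA box match. Icam1 held the short NF-kB form at -153 to -145, where it matched on both strands, and again on the minus strand at -84 to -76. The half-site of the androgen response element (TGTTCT, either strand) matched in none of the 3 windows. Of 32851 RefSeq mouse promoters of this length, 15.7% held the short NF-kB form, 3.9% the longer one, 16.1% the androgen half-site, 6.75% AP-1 and 12.4% the TATA box, and no overlap between motifs occurred in the 3 windows. These are matches of letters, not binding sites, and the RefSeq start of Icam1 is not a start in GENCODE vM21.

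Levels are given in CPM, the read count of a gene scaled to its library's total after TMM adjustment, and the 3 groups were compared in 1 edgeR quasi-likelihood fit over 14121 genes. A gene was called at an unadjusted P value under 0.01, the study's threshold, and Benjamini-Hochberg adjusted P values over all genes tested are printed; rose and fell are used only of genes so called. All 8 members passed the filter on low counts. Sele passed through the control and orchiectomized libraries alone: it reached the cutoff of 0.915 CPM in 3 control, 3 orchiectomized and 0 DHT-treated libraries, so its presence among the tested genes is tied to where it was high. The libraries held between 8268957 and 13816864 reads counted in genes. The orchiectomized replicate 2 stood apart, with the highest Icam1 of all 15 libraries and the highest summed B cell markers. It had the highest value of its group for 33.3% of the tested genes. That share was 26.3% for replicate 3 of the same group and 29.4% for control replicate 3 among the controls. Values without orchiectomized replicate 2 are given beside several results. The labels give each library as a separate sample and do not say how many aortas went into one, so the spread between libraries is the only error measured.

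With DHT, 6 of the 8 adhesion genes fell relative to orchiectomy alone: Vcam1, Icam1, Icam2, Sele, Selplg and Jam2. Among all genes tested, 7.27% were called lower in that comparison. Leaving out Sele, for the reason above, 5 of 7 were called. Selp was lower without passing the test, and Jam3 did not pass, with a log2 fold change of -0.03. After orchiectomy alone, against control, Selplg was the single member called higher, against 2.08% of all genes, and for 0 members did all orchiectomized libraries lie above all controls, against 0.991% of all genes. Between DHT-treated and control mice, Sele and Jam2 were called lower, against 2.01% of all genes, or 1 of 7 leaving out Sele. The orchiectomized libraries enter both of the first comparisons, so a high value in one of them raises the first fold change and lowers the second.

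**Figure D1:**
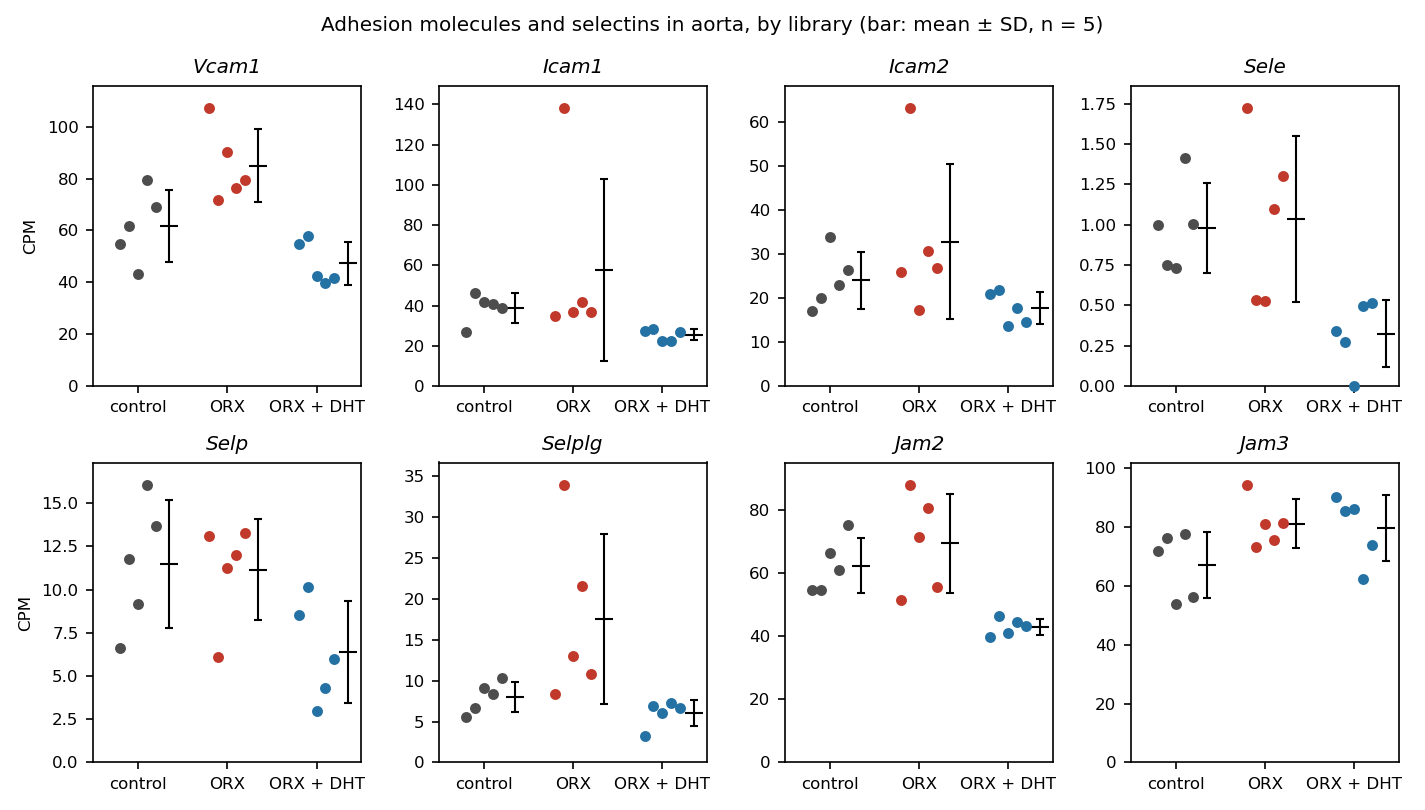
CPM (vertical axis, from 0) of the 8 adhesion genes in each library of the control, orchiectomized (ORX) and DHT-treated orchiectomized (ORX + DHT) groups. Points are libraries in the order of their replicate numbers, and the bar beside them is the mean ± SD of 5. For Vcam1, Icam1, Sele, Selplg and Jam2 the highest DHT-treated library lies below the lowest orchiectomized one, and a single orchiectomized library holds Icam1 at 138 CPM.

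Vcam1 encodes the endothelial and smooth muscle ligand of the integrin VLA-4. In the control libraries, in the order of their replicate numbers, it was at 54.7, 61.8, 43.3, 79.6 and 69.1 CPM. After orchiectomy the libraries held 107.1, 71.6, 90.4, 76.3 and 79.5 CPM. With DHT the libraries held 54.6, 58.0, 42.3, 39.7 and 41.7 CPM. Every DHT-treated library was below every orchiectomized one, while the control libraries overlapped both other groups. The group means were 61.7 ± 13.8, 85.0 ± 14.2 and 47.3 ± 8.38 CPM (SD, n = 5 each). Vcam1 fell 1.80-fold with DHT relative to orchiectomy (log2 fold change -0.84 ± 0.17 SE, edgeR adjusted P = 0.0156). The difference between orchiectomy and control, 0.46 ± 0.16 on the log2 scale, was not called (edgeR adjusted P = 0.331), but was without control replicate 4 (0.57). The biological coefficient of variation of Vcam1 was 0.190, against a common value of 0.297 fitted over all genes tested. Jam2 (0.167) and Jam3 (0.154) varied less still, and the other members were above the common value.

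Icam1 encodes the ligand of the leukocyte integrins LFA-1 and Mac-1. Its control libraries held 26.6, 46.3, 41.9, 40.7 and 38.6 CPM. The orchiectomized ones held 34.8, 138.1, 36.7, 41.8 and 36.7 CPM. The DHT-treated ones held 27.2, 28.3, 22.3, 22.6 and 26.6 CPM. In 4 of the 5 orchiectomized libraries Icam1 was within the range of the controls, and the fifth, replicate 2, was far above all others. The DHT-treated libraries lay in a narrow band below all orchiectomized ones, and 1 control library lay in that band too. Icam1 fell 2.27-fold with DHT (log2 fold change -1.18 ± 0.34, edgeR adjusted P = 0.0593). Without orchiectomized replicate 2 the log2 fold change was -0.55, and in none of the 15 fits that left out 1 library was the call lost. The difference between orchiectomy and control, 0.57 ± 0.33 on the log2 scale (edgeR adjusted P = 0.495), was not called and became -0.06 without that library. DHT-treated libraries were lower than controls by a log2 fold change of -0.61 ± 0.34 (edgeR adjusted P = 0.498), which was not called; without orchiectomized replicate 2 (-0.61 ± 0.13), or with only those groups in the fit (-0.61 ± 0.14), it was called.

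Icam2, a ligand of LFA-1 made by resting endothelium and by platelets, was at 17.0, 19.9, 33.8, 23.0 and 26.3 CPM in the control libraries. The orchiectomized libraries held 25.8, 63.2, 17.3, 30.8 and 26.9 CPM. The DHT-treated libraries held 21.0, 21.8, 13.6, 17.8 and 14.5 CPM. The 3 groups overlapped, and orchiectomized replicate 2 was again the highest of all. Icam2 fell 1.85-fold with DHT (log2 fold change -0.89 ± 0.29, edgeR adjusted P = 0.0938). Without replicate 2 the log2 fold change was -0.49 and no longer passed, and only 6 of the 15 fits with a library left out kept the call. Icam2 did not pass between orchiectomy and control (0.45 ± 0.29, edgeR adjusted P = 0.534), where the value without that library was 0.06.

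Sele encodes E-selectin, which endothelium makes anew when cytokines reach it. It was the rarest member by far, with 11, 8, 7, 20 and 11 reads in the control libraries. The orchiectomized group held 16, 6, 6, 16 and 16 reads. The DHT-treated group held 4, 3, 0, 4 and 5 reads. DHT-treated replicate 3 had no read, which at its depth allows up to 0.385 CPM, counting error only. The highest DHT-treated library (0.517 CPM) was below the lowest orchiectomized one (0.525 CPM) by less than the worth of 1 read, so the gap between these groups is within counting error. The group means were 0.979 ± 0.277, 1.04 ± 0.515 and 0.325 ± 0.209 CPM. Sele fell 3.07-fold with DHT relative to orchiectomy (log2 fold change -1.62 ± 0.51, edgeR adjusted P = 0.0817) and 2.94-fold relative to control (-1.55 ± 0.51, edgeR adjusted P = 0.268). Those calls held in 10 and in 8 of the 15 fits with a library left out. Sele did not pass between orchiectomy and control (0.06 ± 0.45), with a 95% interval from -0.90 to 1.03.

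Selp encodes P-selectin. Its control libraries held 6.61, 11.8, 9.18, 16.1 and 13.7 CPM. The orchiectomized libraries held 13.1, 6.11, 11.3, 12.0 and 13.3 CPM. The DHT-treated libraries held 8.55, 10.2, 2.95, 4.32 and 6.00 CPM. Orchiectomized replicate 2, highest for the Icam genes, was the lowest of its group for Selp, and the DHT-treated group spread from 2.95 to 10.2 CPM. The DHT-treated mean of 6.40 ± 2.97 CPM lay below the orchiectomized 11.2 ± 2.94 and the control 11.5 ± 3.71 CPM, but the groups overlapped. Neither difference passed the threshold: against orchiectomy it was -0.79 ± 0.32 on the log2 scale (edgeR adjusted P = 0.173) and against control -0.83 ± 0.32 (edgeR adjusted P = 0.356). The 95% interval of the first ran from -1.48 to -0.10. Both were called without DHT-treated replicate 2 (-1.02 and -1.06), and the second also without control replicate 1 (-0.98).

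Selplg encodes PSGL-1, a ligand of selectins, which leukocytes carry. It was at 5.61, 6.65, 9.07, 8.43 and 10.3 CPM in the control libraries. After orchiectomy the libraries held 8.40, 34.0, 13.0, 21.6 and 10.8 CPM. With DHT the libraries held 3.25, 6.85, 6.02, 7.28 and 6.62 CPM. Replicates 2 and 4 of the orchiectomized group were above every other library, and its 3 remaining libraries were nearer to the controls. The group means were 8.02 ± 1.88, 17.6 ± 10.4 and 6.00 ± 1.61 CPM. Selplg was the one member to pass in both directions: it rose 2.19-fold with orchiectomy (log2 fold change 1.13 ± 0.34, edgeR adjusted P = 0.285) and fell 2.93-fold with DHT (-1.55 ± 0.35, edgeR adjusted P = 0.0243). The rise was called in 11 of 15 fits with a library left out and was 0.75, short of the threshold, without orchiectomized replicate 2. The fall was called in all 15, with -1.16 as its smallest size, again without that library. DHT-treated and control libraries did not pass against each other (-0.42, 95% interval -1.16 to 0.32).

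Jam2 encodes JAM-B, a protein of endothelial junctions. Its control libraries held 54.6, 54.4, 66.3, 60.9 and 75.2 CPM. The orchiectomized libraries held 51.3, 87.9, 71.3, 80.6 and 55.5 CPM. The DHT-treated libraries held 39.7, 46.3, 41.0, 44.3 and 43.1 CPM. All DHT-treated libraries, from 39.7 to 46.3 CPM, lay below all 10 others. Jam2 fell 1.62-fold relative to orchiectomy (log2 fold change -0.69 ± 0.14, edgeR adjusted P = 0.0173) and 1.45-fold relative to control (-0.54 ± 0.14, edgeR adjusted P = 0.156). It kept both calls in all 15 fits with a library left out. Orchiectomy and control did not differ beyond the test (0.16 ± 0.14, edgeR adjusted P = 0.671).

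Jam3 encodes JAM-C, the partner that JAM-B binds. The control libraries held 71.9, 76.1, 54.0, 77.7 and 56.2 CPM. The orchiectomized group held 94.4, 73.4, 81.2, 75.6 and 81.5 CPM. The DHT-treated group held 90.2, 85.4, 86.3, 62.5 and 74.0 CPM. The 3 groups overlapped throughout, with means of 67.2 ± 11.3, 81.2 ± 8.17 and 79.7 ± 11.4 CPM. Between DHT and orchiectomy the log2 fold change was -0.03 (95% interval -0.30 to 0.25, edgeR adjusted P = 0.935), so a fall as large as that of Jam2 is outside the interval. The difference between orchiectomy and control was 0.27 ± 0.13 (edgeR adjusted P = 0.417). The log2 ratio of Jam2 to Jam3 was -0.10 ± 0.42 in control, -0.25 ± 0.46 in orchiectomized and -0.88 ± 0.27 in DHT-treated libraries. The DHT-treated range (-1.18 to -0.49) overlapped that of the orchiectomized libraries (-0.88 to 0.26) and lay just below that of the controls (-0.48 to 0.42). This pair was compared after its values were seen, and the ratio is given as a description.

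**Figure D2:**
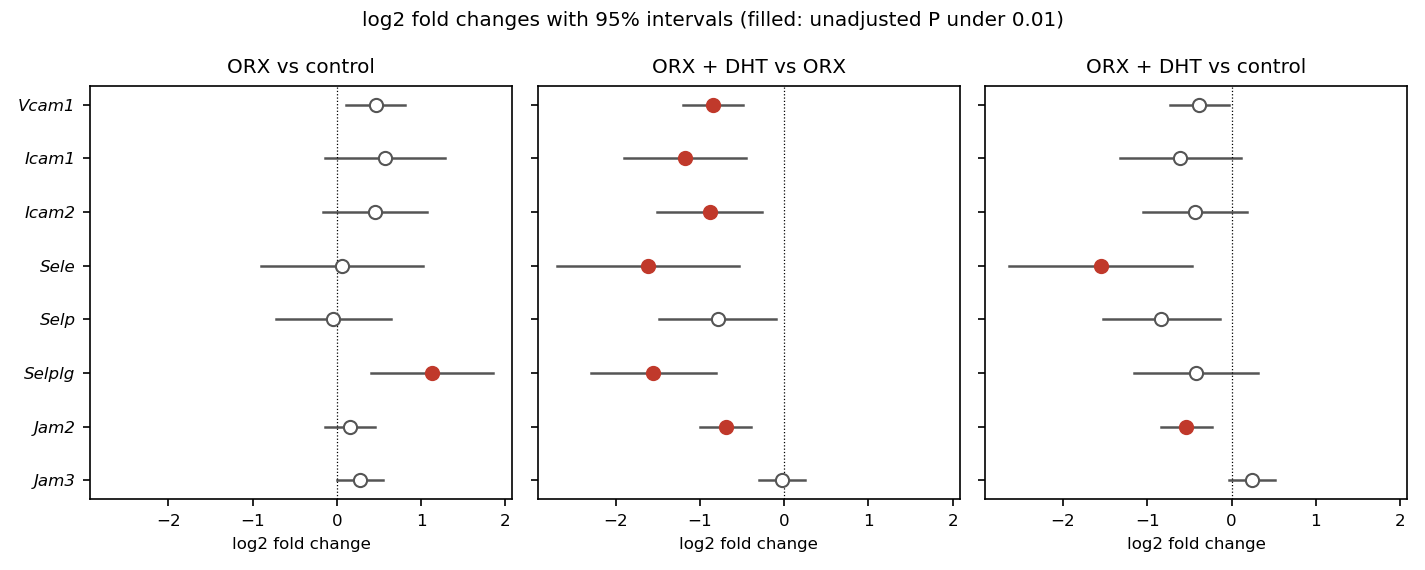
log2 fold changes of the 8 adhesion genes (horizontal axis) with their 95% intervals in the 3 comparisons, from 1 edgeR fit of 15 libraries. Filled points have an unadjusted P value under 0.01: Selplg in the left panel, Vcam1, Icam1, Icam2, Sele, Selplg and Jam2 in the middle panel, Sele and Jam2 in the right panel.

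At an adjusted P value under 0.05, Vcam1, Selplg and Jam2 remained called lower with DHT relative to orchiectomy, against 3.8% of all genes. For 5 members, Vcam1, Icam1, Sele, Selplg and Jam2, no DHT-treated library reached the lowest orchiectomized one, against 4.34% of all genes, and leaving out Sele this held for 4 of 7. Sele and Jam2 also did not overlap between DHT-treated and control libraries, against 1.79% of all genes, or 1 of 7 leaving out Sele. The median log2 fold change of the 8 members was -0.86 for DHT relative to orchiectomy, against -0.02 over all genes tested. For orchiectomy relative to control it was 0.36, against 0.04, and 0.15 without orchiectomized replicate 2. For DHT relative to control it was -0.49, against -0.0029. The members were chosen with earlier results of these data known, so these shares describe them and are no test of the group. No member was called higher with DHT in edgeR at an unadjusted P value under 0.01 or under 0.05, nor in DESeq2 at 0.01. The share of all genes called higher with DHT was not worked out, so this count is no result about the members.

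Divided by the annotated exon length, the levels in control aortas ran in the order Jam3, Icam2, Jam2, Icam1, Vcam1, Selp, Selplg and Sele. Jam3 was at 21.0 ± 3.52 CPM per kb, Icam2 at 12.6 ± 3.39, Jam2 at 10.3 ± 1.45, Icam1 at 8.91 ± 1.69 and Vcam1 at 6.96 ± 1.56. Selp followed at 2.60 ± 0.841, Selplg at 1.88 ± 0.441 and Sele at 0.336 ± 0.0952 CPM per kb. Neighbors in this order overlapped between libraries except at 2 steps, from Vcam1 to Selp and from Selplg to Sele. The DHT-treated libraries had the same order of means, from 24.9 ± 3.55 CPM per kb for Jam3 to 0.111 ± 0.0717 for Sele. In the orchiectomized libraries Icam1 (13.2 ± 10.3) stood above Jam2 (11.5 ± 2.60) and Selplg (4.11 ± 2.44) above Selp (2.53 ± 0.667). The step from Jam2 to Icam1 was smaller than the SD of either gene. The step from Selp to Selplg was smaller than the SD of Selplg but larger than that of Selp. The length is that of all annotated exons joined, which lowers the value of a gene with rarely used long exons.

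Icam1 and Icam2 went together across the 15 libraries (Pearson r of log2 CPM 0.88, and 0.71 without orchiectomized replicate 2), as did Selplg and Jam2 (0.86, and 0.83 without it), Sele and Selp (0.75 with and without it) and Vcam1 and Selp (0.74, and 0.80 without it). With the group means removed, r was 0.81, 0.89, 0.54 and 0.72 for these pairs. Icam1 also went with Selplg (0.79, but 0.58 without orchiectomized replicate 2) and with Jam2 (0.77, and 0.78 without that library). For Icam2 and Selplg r was 0.74, but 0.50 without that library. For Jam3 the highest r was 0.40, with Vcam1, and 0.66 with the group means removed. These values share the libraries and their depth and are descriptions. Over all genes tested, the patterns most like each member were sought in the same way. Selplg was nearest to the leukocyte integrin Itgal (r = 0.97), the small GTPase Rac2 of blood cells (0.97) and the adaptor Lat2 (0.96). Jam2 was nearest to Add3 (0.97), Themis2 (0.94) and Fyn (0.93), of which Themis2 and Fyn are known for signaling in immune cells. Icam2 was nearest to Ecscr (0.94), an endothelial surface protein, AU021092 (0.93) and Hhex (0.93). Icam1 went with Fgfr3 (0.98), Cdk1 (0.96) and Epha2 (0.95), and Vcam1 with Thumpd1 (0.96) and Crnkl1 (0.93). Jam3 went with Hspa2, Leprot and Id4 (0.92 each), Selp with Pyroxd1 (0.93), Enpp6 (0.91) and Gm9833 (0.90), and Sele with Zfp119a (0.88), Zfp944 (0.86) and Rab35 (0.84). Leaving out the 2 libraries farthest from the median of each member, r ranged from 0.69 for Sele and Zfp119a to 0.95 for Vcam1 and Thumpd1, and for Icam1 and Epha2 it went to 0.79.

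On the leukocyte side of the same adhesion steps, of 12 leukocyte integrin and other adhesion receptor genes, all tested, 10 fell with DHT relative to orchiectomy, and the median of the 12 log2 fold changes was -1.62. Itgax, which encodes CD11c, fell most clearly (-2.99 ± 0.51, edgeR adjusted P = 0.00864). Itgal, the alpha chain of LFA-1, fell by 2.48 on the log2 scale and Itgb7 by 2.21, while Itga4, the VLA-4 chain that binds VCAM-1, fell by 0.79 and Cd44 by 0.82. Itgb1 (-0.06 ± 0.20) and Itgae (-0.09 ± 0.69) did not pass. With orchiectomy against control, 6 of the 12 rose, Itgax the most clearly (2.01 ± 0.47, edgeR adjusted P = 0.244). Without orchiectomized replicate 2, a setting chosen after seeing the data, these counts were 9 lower and 3 higher. Without it Itgax fell by 2.26 and Itgal by 1.82 with DHT, and their rises with orchiectomy were 1.28 in place of 2.01 and 1.16 in place of 1.81, all 4 still called; the rise of Itgb7 (0.90) was not called. Of the 12, 1 passed the filter on low counts through the orchiectomized libraries, with fewer than 5 other libraries at the cutoff. Between DHT-treated and control libraries none of the 12 was called by edgeR or DESeq2, and 3 had an unadjusted P value under 0.05 in edgeR.

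Enzymes that build the selectin-binding sugars fell in part. Of 9 genes on that list 8 were tested, and 4 fell with DHT relative to orchiectomy: the sialyltransferases St3gal6 (-1.61 ± 0.22, edgeR adjusted P = 0.00346) and St3gal4 (-0.69 ± 0.16), the sulfotransferase Chst2 (-0.67 ± 0.17) and the core 2 enzyme Gcnt1 (-1.14 ± 0.30). St3gal6, St3gal4 and Chst2 had risen with orchiectomy, St3gal6 by 1.00 ± 0.21 (edgeR adjusted P = 0.176). St3gal4 fell by 0.46 with DHT without orchiectomized replicate 2, and its rise with orchiectomy was 0.38 in place of 0.61. These enzymes also act on other proteins. The 4 calls with DHT and the 3 with orchiectomy were kept in number without orchiectomized replicate 2. Against control, Gcnt1 was the 1 gene called lower with DHT (-1.13 ± 0.30, edgeR adjusted P = 0.152).

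Among 12 tested genes of junctions and transmigration, 3 fell with DHT relative to orchiectomy: Alcam (-0.92 ± 0.22, edgeR adjusted P = 0.0289), Pecam1 (-0.53 ± 0.13) and Ocln (-2.09 ± 0.68). Alcam also rose with orchiectomy (0.83 ± 0.22, edgeR adjusted P = 0.244), and Pecam1 was lower with DHT than in control (-0.47 ± 0.13, edgeR adjusted P = 0.170). The list's median with DHT was -0.31, against the -0.02 of all genes, and without orchiectomized replicate 2 it was -0.11 with 2 genes called. Without that library Ocln was at -0.83 and was not called, and Alcam was at -0.60 with DHT and 0.51 with orchiectomy. Of the addressins of mucosa and lymph node and their chemokines, 8 of 11 were tested, and Chst4, a sulfotransferase of high endothelial venules, was called lower with DHT relative to orchiectomy (-2.66 ± 0.52, edgeR adjusted P = 0.0152), with Cd34 (-0.53 ± 0.17) as the other; without orchiectomized replicate 2 the list had 1 call, Chst4. Chst4 passed the filter on low counts through the orchiectomized libraries, with fewer than 5 other libraries and no DHT-treated one at the cutoff, so its calls are a description and support nothing. It was also the 1 gene of that list lower with DHT than in control (-2.58 ± 0.52, edgeR adjusted P = 0.0506), and none of the list was called with orchiectomy by edgeR or DESeq2, where 1 had an unadjusted P value under 0.05.

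Of 23 genes of the cytokine and NF-kB response, which includes known inducers of Vcam1, Icam1 and Sele, 17 had enough reads to test. With DHT 3 of them fell relative to orchiectomy, Ccl2, a chemokine for monocytes, the most clearly (-1.26 ± 0.29, edgeR adjusted P = 0.0250), with Tnfaip3 (-0.51 ± 0.16) and the TNF receptor Tnfrsf1b (-0.53 ± 0.17). DESeq2 called 4 lower, 8 of the 17 had an unadjusted P value under 0.05 in edgeR, and 1 to 7 were called lower over 22 settings. Nfkbia rose with orchiectomy (0.49 ± 0.15, edgeR adjusted P = 0.288) and Ccl2 was lower with DHT than in control (-1.43 ± 0.29, edgeR adjusted P = 0.0506). Without orchiectomized replicate 2, 2 genes of the list, Ccl2 and Tnfaip3, were called lower with DHT relative to orchiectomy and 0 higher with orchiectomy, where DESeq2 on all libraries called 1. Tnf, Il1a, Il1b, Il6, Cxcl1 and Cxcl2 were under the filter on low counts.

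**Figure D3:**
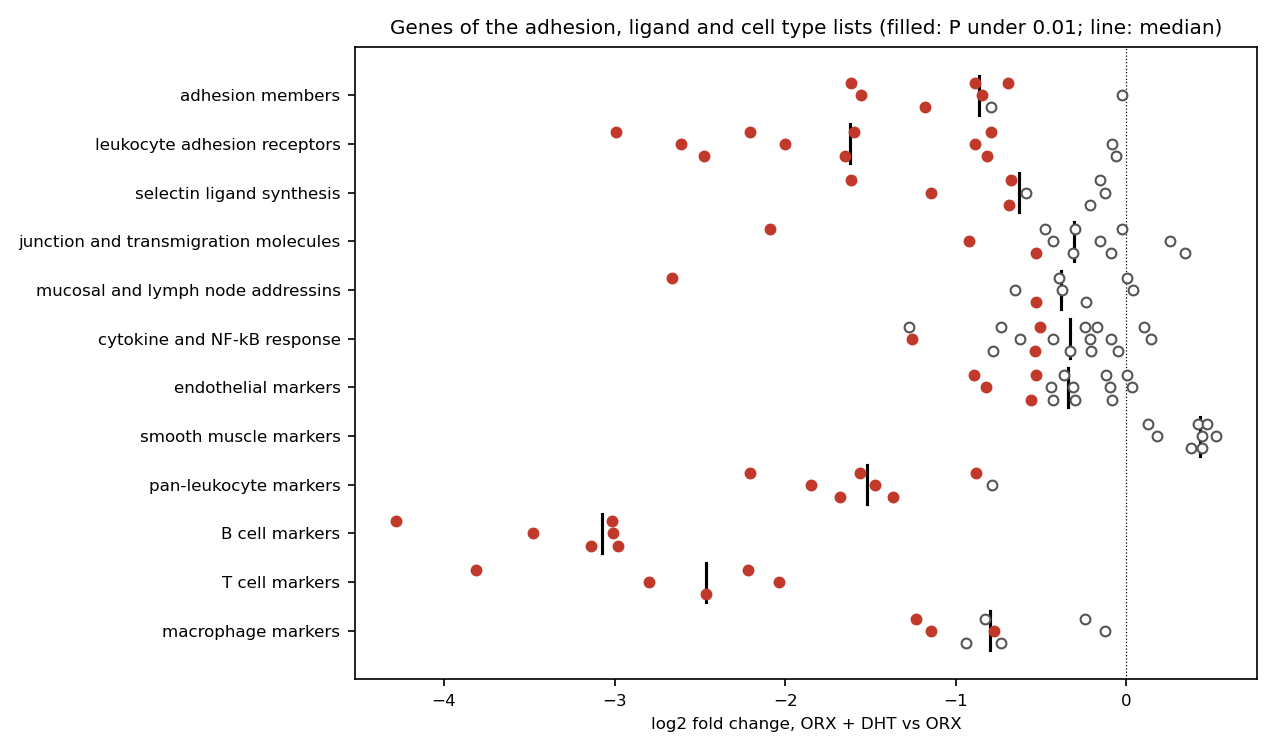
log2 fold changes with DHT relative to orchiectomy (horizontal axis) of each tested gene in the adhesion gene set, 5 lists of adhesion partners and 6 lists of cell type markers. Filled points have an unadjusted P value under 0.01 and the line is the list's median, at -0.86 for the adhesion genes, -1.62 for leukocyte adhesion receptors, -0.34 for endothelial markers and -3.07 for B cell markers.

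Markers of leukocytes differed between the groups. All 8 pan-leukocyte markers were detected in every library, and their summed level ranged from 127 to 269 CPM in control, from 222 to 677 in orchiectomized and from 112 to 198 in DHT-treated libraries, with orchiectomized replicate 2 the highest. Of the 8, 7 fell with DHT and 4 rose with orchiectomy, or 7 and 3 without that library. Ptprc, which encodes CD45, fell by 2.20 ± 0.39 on the log2 scale with DHT (edgeR adjusted P = 0.0103) after a rise of 1.24 ± 0.37 with orchiectomy (edgeR adjusted P = 0.285); without orchiectomized replicate 2 that rise was 1.02 and was not called. Coro1a, an actin regulator of leukocytes, rose most clearly with orchiectomy (1.36 ± 0.31, edgeR adjusted P = 0.239). B cell markers summed to 3.75 to 9.59 CPM in control, 6.78 to 163.5 in orchiectomized and 2.99 to 11.7 in DHT-treated libraries, with none of the 6 at 0 in any library. All 6 rose with orchiectomy and fell with DHT, also without orchiectomized replicate 2, with Ms4a1 the clearest fall (-4.28 ± 0.82, edgeR adjusted P = 0.0146). Ms4a1 and 3 others of the 6 passed the filter on low counts through the orchiectomized libraries, with fewer than 5 other libraries at the cutoff, so these counts are a description and support nothing. T cell markers summed to 3.84 to 13.5, 6.57 to 67.0 and 3.16 to 5.59 CPM, and of 5 tested 4 rose with orchiectomy (3 without that library), Cd3g the most clearly (2.43 ± 0.51), and all 5 fell with DHT, Cd8a the most clearly (-3.81 ± 0.77). Of these 5, Cd8a and 1 other passed the filter in the same way. Macrophage markers summed to 365 to 963, 623 to 1426 and 339 to 663 CPM, and 3 of 8 fell with DHT, Adgre1 the most clearly (-1.23 ± 0.35, edgeR adjusted P = 0.0562), and 1 without orchiectomized replicate 2.

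Selplg was set against a leukocyte and an endothelial gene in each library. Its log2 ratio to Ptprc was -0.71 ± 0.29 in control, -0.83 ± 0.50 in orchiectomized and -0.26 ± 0.34 in DHT-treated libraries, and these overlapped. Its log2 ratio to Cdh5, an endothelial cadherin, was -4.00 ± 0.42, -3.11 ± 0.39 and -4.21 ± 0.29, and DHT-treated and orchiectomized libraries did not overlap. Jam2 and Vcam1 relative to Cdh5 overlapped between all groups. Relative to Ptprc, the mean log2 ratio was higher with DHT than with orchiectomy by 1.28 for Jam2, 1.10 for Vcam1 and 1.01 for Icam1, and those groups overlapped. In bulk tissue, fewer cells of a type and less RNA per cell cannot be told apart, for any of these genes. The part of leukocyte number in the differences of Selplg, Jam2, Icam1 and Vcam1 was not tested.

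**Figure D4:**
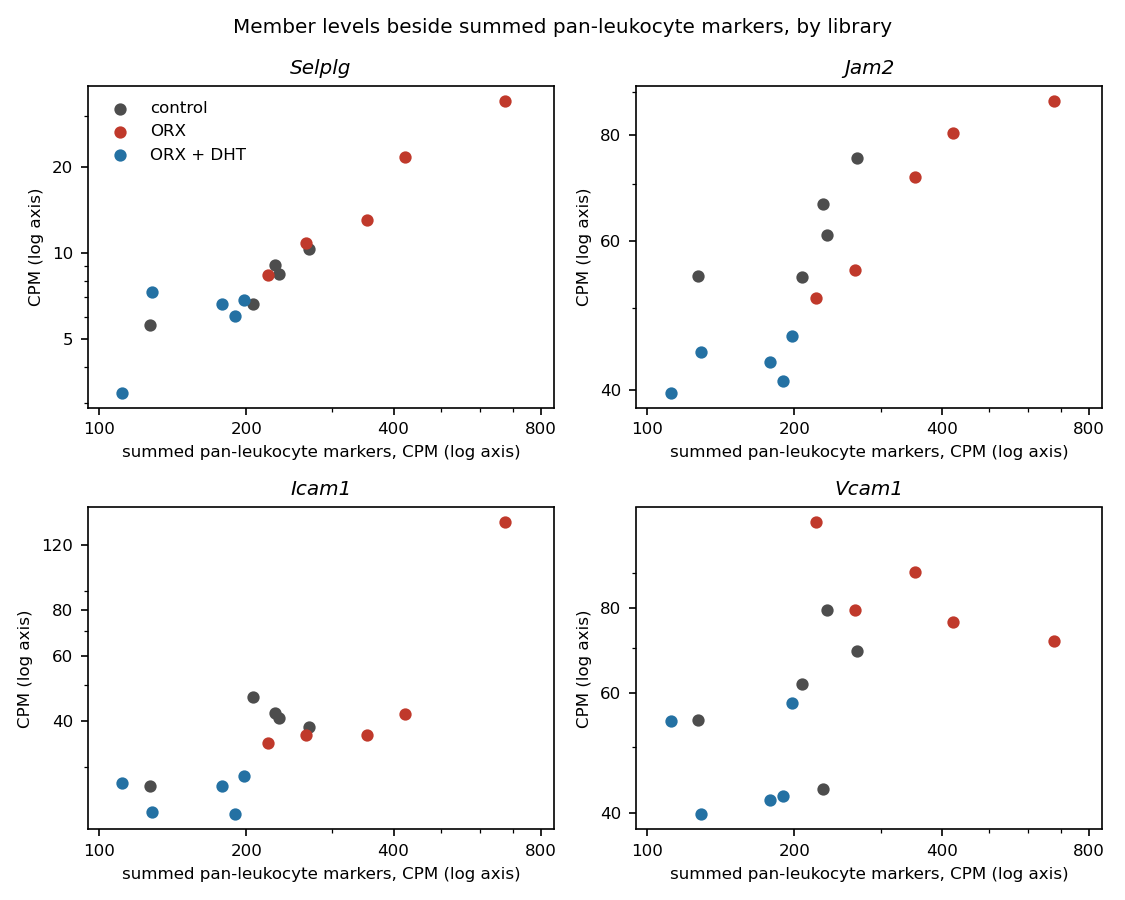
CPM of Selplg, Jam2, Icam1 and Vcam1 (vertical, log axis) against the summed CPM of 8 pan-leukocyte markers (horizontal, log axis), 1 point per library. Selplg climbs with the leukocyte markers up to orchiectomized replicate 2 at 677 and 34.0 CPM, while Vcam1 is highest, at 107.1 CPM, in an orchiectomized library with markers of 222 CPM.

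Some endothelial markers were lower with DHT. Of this list, Pecam1, Cdh5, Esam and Cldn5 also stand on the list of junction genes, so the calls of Pecam1 are counted in both. Of 14 endothelial markers 4 fell with DHT relative to orchiectomy, Tek, the angiopoietin receptor, the most clearly (-0.89 ± 0.17, edgeR adjusted P = 0.0153), with a median of -0.34 over the list; without orchiectomized replicate 2 the median was -0.18 and 3 were called. With DHT against control 5 were lower, Nos3, the endothelial nitric oxide synthase, the most clearly (-0.68 ± 0.13, edgeR adjusted P = 0.0464). Cdh5 itself was at 133 ± 36.0 CPM in control, 142 ± 50.2 in orchiectomized and 115 ± 31.9 in DHT-treated libraries and did not pass in any comparison (DHT relative to orchiectomy -0.30 ± 0.24, edgeR adjusted P = 0.510). Summed, the endothelial markers ranged from 1389 to 2020, from 1525 to 2299 and from 1211 to 1505 CPM, and none was at 0 in any library. The marker sum of the DHT-treated group lay below that of all orchiectomized libraries, and the part of endothelial content in the fall of the endothelial members was not tested.

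The plot of fold changes with each library left out shows how far a single library set the sizes. Leaving out orchiectomized replicate 2 brought Icam1 and Icam2 to near the size of Jam2. The values without it were -0.88 for Vcam1, -1.76 for Sele and -0.92 for Selp. For Selplg and Jam2 they were -1.16 and -0.58, and both stayed called. In a fit of the orchiectomized and DHT-treated libraries alone, Vcam1, Selplg and Jam2 were the 3 members called, Sele fell below that fit's filter, and Icam1 and Icam2 missed the threshold.

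**Figure D5:**
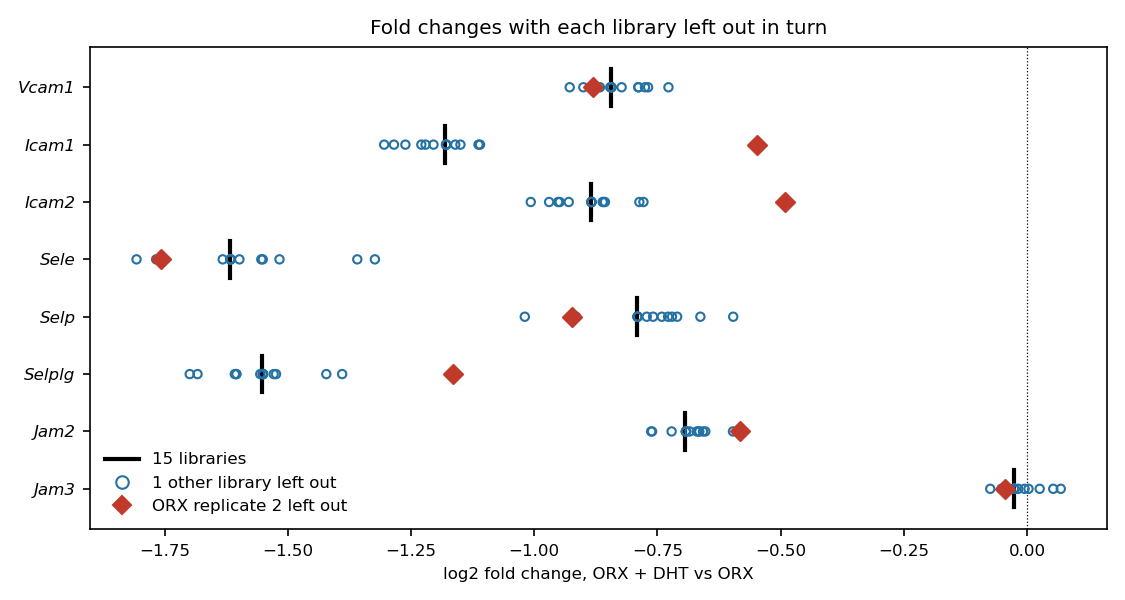
log2 fold change with DHT relative to orchiectomy (horizontal axis) of each adhesion gene in the fit of 15 libraries (black line), with orchiectomized replicate 2 left out (red diamond) and with each other library left out (open circles). Without replicate 2 the value of Icam1 goes from -1.18 to -0.55 and that of Icam2 from -0.89 to -0.49, and Jam3 stays near 0 in all fits, between -0.07 and 0.07.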

How the data were processed

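RNA-Seq of aortas from 15 samples, 5 in each of 3 groups, was used. The authors deposited 1 count table per library, with whole-number counts by gene symbol and no normalization, made from poly(A)-enriched libraries. The submitters' processing notes name STAR, Cufflinks, DESeq2 and the build mm10, without versions; the counting program, its strand setting and the annotation were not given in the sources used here. Entries for reads of no gene (6.26% to 14.4% of reads) or of several genes (1.34% to 1.97%) were left out. Groups and replicate numbers came from the labels.

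These counts went into edgeR 4.0.16 (R 4.3.3): filterByExpr (minimum count 10, minimum total 15), TMM, and a quasi-likelihood test in 1 model of the 3 groups over all 15 libraries, called at an unadjusted P value under 0.01, with Benjamini-Hochberg adjustment over 14121 genes. The comparisons were orchiectomized with control, DHT-treated with orchiectomized, and DHT-treated with control. An exact permutation test had been planned for members under the filter, and there were none. A library of median depth gives 0.915 CPM for 10 reads, so Sele, with 0 to 20 reads, was measured with little precision. log2 CPM used a prior count of 3, and CPM per kb the joined exons of GENCODE vM21 (GRCm38). No 2 libraries were identical, and pairs of libraries, within and between groups, correlated at 0.871 to 0.986. The model was tested on simulated data. Genes named are all members, for each list the gene of smallest P value per direction among those called, Cdh5, Ptprc, Acta2 and Pf4, and for each member the 3 genes of highest Pearson correlation; other list genes were named after their values were seen. Some genes that this rule names are not reported here. The members and lists (adhesion partners, sugar enzymes, junctions, addressins, cytokine response, and markers of endothelium, smooth muscle, fibroblasts, leukocytes, T cells, B cells, macrophages, neutrophils, platelets and adipocytes) were chosen with earlier results of these data known. Alternatives were DESeq2 1.42.0, RLE size factors, 2 other filters, a fit of the compared groups alone, the replicate number as a block, the adjusted threshold, voom of limma 3.58.1 with quality weights and each library left out; list counts and list gene values without orchiectomized replicate 2 were added after seeing the data. Promoters were searched and figures drawn in Python 3.11.15.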

Additional observations from a re-analysis of the deposited data

Results flagged for a closer look

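Within the 24 sets of 5 libraries (8 genes in 3 groups), the gap of the highest or lowest log2 CPM to its nearest neighbor was taken as a share of the group's log2 range, with a limit of 0.71 for 5 samples (Dixon's test). Chance passes about 1 set in 20, and 3 passed. Icam1 in orchiectomized replicate 2 was at 138 CPM, and the next library of that group was at 41.8, a gap of 0.867 of the range. Selp in the same library was at 6.11 CPM, below the next at 11.3, a gap of 0.789. Selplg in DHT-treated replicate 1 was at 3.25 CPM, below the next at 6.02, a gap of 0.761. Taken on CPM without the log, the shares were 0.932, 0.722 and 0.688, so the last was under the limit, and 2 of the 24 sets passed. The same DHT-treated library had the lowest summed pan-leukocyte markers of its group, 112 CPM, and orchiectomized replicate 2 the highest of all, 677 CPM.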

How the results depend on the processing

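Depth limits Sele most. Of the 8 members, 6 were called lower with DHT relative to orchiectomy also under DESeq2 and RLE size factors, 6 under voom (with Selp in place of Icam2) and 5 under the other filters and the block. With only the groups compared, or an adjusted P value under 0.05, 3 were called. The number of all genes called also moved with the setting, as given below. The member counts in this paragraph therefore describe the settings and are no result about the members alone. For orchiectomy relative to control the adjusted threshold called 0 against 1, and for DHT relative to control 0 against 2. The filters on at least 1 count in all and on 10 counts in every library each called 1 in DHT relative to control; the second drops Sele. With each library left out in turn, members called ranged from 0 to 2 for orchiectomy relative to control, from 4 to 6 for DHT relative to orchiectomy and from 1 to 3 for DHT relative to control. The first count was 0 without orchiectomized replicate 2 or 4 or control replicate 1 or 2, and 2 without control replicate 4. The last count was 1 without control replicate 4 or 5, orchiectomized replicate 4 or 5 or DHT-treated replicate 1, and the second was 4 without orchiectomized replicate 4 or DHT-treated replicate 1.

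Several values, most of them near 0, changed sign, and the cause was not tested. Jam3 with DHT relative to orchiectomy was 0.0028 with DESeq2, 0.0020 with RLE and 0.013 over all genes with a count, and ranged from -0.075 to 0.069 with a library left out. For orchiectomy relative to control, Sele was -0.00099 with the block and -0.20 to 0.24 with a library left out. Selp was 0.21 with voom and -0.19 to 0.11 with a library left out, and Jam2 was -0.0087 with voom. Icam1 in that comparison was not near 0 with all libraries (0.57), but ranged from -0.058, without orchiectomized replicate 2, to 0.69. Under voom, which lowers the weight of variable libraries, Icam1 with DHT relative to orchiectomy was -0.59, and with orchiectomy Vcam1 was called and Selplg was not. Icam1 with DHT relative to control was called with only the groups compared (-0.61) and without orchiectomized replicate 2 (-0.61), and Vcam1 in that comparison without control replicate 3 (-0.49).

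Same-numbered libraries deviated together (r over 0.1) in 5 of 15 pairs (-0.47 to 0.46). Differently numbered libraries were not compared, so this does not settle whether the numbers pair the libraries. The replicate block called 285 genes in place of 454 for orchiectomy relative to control and lost Icam2 among the members with DHT. Over all genes that count was 752 with every gene of at least 1 count, 297 with the groups compared, 260 and 254 without control replicate 3 or orchiectomized replicate 2 (fewer still without control replicate 1), 716 without control replicate 4 and 0 adjusted (1692 under an unadjusted 0.05). For DHT it was 1373, or 666 adjusted, relative to orchiectomy, and 498, or 37 adjusted and 992 with voom, relative to control, where it was 283, 328 and 323 without control replicate 5 or DHT-treated replicate 3 or 5.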

Other observations

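Markers of the other cells of the aortic wall gave the following values, with no test of their part in the adhesion genes. All 8 smooth muscle markers had a log2 fold change above 0 for DHT relative to orchiectomy, with a median of 0.43, and their summed level ranged from 14308 to 20519 CPM in control, from 11204 to 20700 in orchiectomized and from 20145 to 25023 in DHT-treated libraries. None was called by edgeR at an unadjusted P value under 0.01, 5 were under 0.05, and DESeq2 called 2; without orchiectomized replicate 2 edgeR called 1, and 3 higher for DHT relative to control, where it had called 0 (3 under 0.05, DESeq2 0). Acta2, the contractile actin, was at 5565 ± 716, 5269 ± 1254 and 6854 ± 759 CPM (SD, n = 5 each). Of 8 fibroblast markers 2 fell with DHT relative to orchiectomy, Lum, a proteoglycan of collagen fibers, the most clearly (-1.90 ± 0.27, edgeR adjusted P = 0.0036), and Lum was also lower with DHT than in control (-1.43 ± 0.27, edgeR adjusted P = 0.0432). Without orchiectomized replicate 2, 4 fibroblast markers were called lower relative to orchiectomy.

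Of 5 tested neutrophil markers 3 rose with orchiectomy, S100a9 the most clearly (3.60 ± 0.62, edgeR adjusted P = 0.0960), and 3 fell with DHT, Ngp the most clearly (-2.61 ± 0.69, edgeR adjusted P = 0.0440), or 1 without orchiectomized replicate 2. Of these 5, Ngp and S100a8 passed the filter on low counts through the orchiectomized libraries, with fewer than 5 other libraries at the cutoff, so these counts are a description. S100a9 and S100a8 stayed higher with DHT than in control (S100a9 1.89 ± 0.61, edgeR adjusted P = 0.261). Platelet markers, which bear on the platelet store of P-selectin, were not called in any comparison by edgeR or DESeq2, nor at an unadjusted P value under 0.05, and Pf4 was at 26.9 ± 8.67, 29.2 ± 6.45 and 22.4 ± 8.12 CPM. All 6 adipocyte markers had a log2 fold change below 0 with orchiectomy (median -0.65); Lep was the 1 called (-1.85 ± 0.52, edgeR adjusted P = 0.268), 3 had an unadjusted P value under 0.05, and 0 to 3 were called over 22 settings.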
